A study of Rattus norvegicus with 24 samples.

Results

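Hippocampus was examined in 14-day-old Long-Evans rat pups whose mothers had been dosed by gavage with Aroclor 1254, a commercial mixture of polychlorinated biphenyls (PCBs). The arrays compared are the 6 hippocampus arrays of postnatal day (PND) 14 among the 24 arrays of the series. Of these, 3 come from pups of dams dosed at 6 mg/kg/day (dams 12, 15 and 18) and 3 from pups of undosed dams, which received 0 mg/kg/day in the same corn oil (dams 1, 7 and 13). Dosing ran from gestation day 6 to PND14 for these pups, and to PND7 for the pups of the same 6 litters whose hippocampus at PND7 serves for comparison. The other arrays are of cerebellum at both ages. Per the labels, 1 male pup was taken per litter and age, so each array is 1 pup and a group is 3 litters. Each value is a log2 expression value of a probe set, a group of array probes for 1 transcript, and a difference of 1 is a doubling.

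PCBs act in animals through the aryl hydrocarbon receptor, which switches on drug-metabolizing enzymes such as the Cyp1 family, and through the nuclear receptors CAR and PXR. They also lower circulating thyroid hormone, on which myelin formation and dendrite growth in the young hippocampus depend, and some of them bind the ryanodine receptor, a calcium channel of internal stores. The second postnatal week is a time of fast synapse and myelin formation in the rat hippocampus. The tissue also holds blood vessels, and whatever blood remains in them carries haemoglobin mRNA in young red cells.

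The arrays carried the markers of their tissue. Crym, a thyroid hormone binding protein of forebrain neurons, lay at 11.88 to 12.29 in the 6 hippocampus arrays and at 7.02 to 7.09 in the PND14 cerebellum arrays, and Nrgn, a calmodulin-binding protein of forebrain spines, at 12.15 to 12.32 against 7.50 to 8.14. The Purkinje cell gene Pcp2 lay at 6.29 to 6.56 against 12.01 to 12.34. One array stood apart within the 6, that of the dosed pup of dam 15. It correlated with the other 5 at 0.973 to 0.977, while those correlated with each other at 0.988 to 0.994, and 63 of 9519 probe sets in it lay more than 1 log2 unit from the mean of the other 5. Xist, the RNA of the inactive X chromosome of females, was at 8.98 in the pup of undosed dam 1 and at 4.13 to 4.31 in the other 5, although all pups are labelled male. Results are therefore also given without the array of dam 15, and calls without that of dam 1.

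Haemoglobin signal was higher in pups of dosed dams, and no other gene passed the test. Of 9519 probe sets tested across the hippocampus, 3 were called at an adjusted p under 0.05 (0.0315%), all of them for haemoglobin chains and all higher in dosed pups. None was called lower. A probe set listed under both Hba-a2 and Hba-a1, the alpha chains of adult haemoglobin, rose by 1.11 ± 0.16 (log2, SE; 2.15-fold; adjusted p = 0.0411), a second one for the same pair rose by 1.16 ± 0.19 (2.24-fold; adjusted p = 0.0493), and one listed under Hbbl1 and Hbb-bs, which are beta chains, rose by 1.49 ± 0.23 (2.81-fold; adjusted p = 0.0411). These shared probe sets were chosen after their values were seen. The calls lie at the edge of the threshold. Over 15 alternatives their adjusted p ranged from 0.0229 to 0.439 and their change stayed positive, at 0.93 to 1.69. They were lost (0 called) without the dosed pup of dam 15 or of dam 18, without any 1 of the 3 undosed pups, without the PND7 pup of dosed dam 12 or of any undosed dam (those arrays share the estimate of spread), after quantile normalization, with no filter on low values, in a fit of the 23 arrays of both tissues and in a fit of the 6 arrays alone, while 5 were called without the dosed pup of dam 12.

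At an unadjusted p under 0.05 there were 390 probe sets (4.10%), fewer than the 475.95 expected by chance among 9519, with 309 higher and 81 lower in dosed pups. The dosed and undosed arrays did not overlap in 884 probe sets (9.29%), with dosed pups higher in 629 (6.61%) and lower in 255 (2.68%). Differences were small in general. The median over all probe sets was 0.02, 5th to 95th percentile -0.15 to 0.21, and 31 probe sets differed by more than 0.5. For a single gene, 3 pups against 3 allow no exact permutation p below 0.1.

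**Figure D1:**
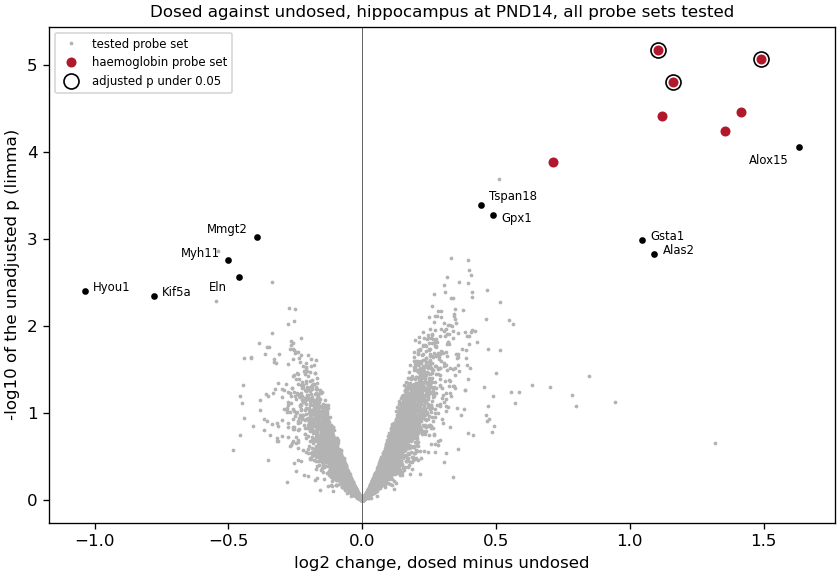
The x axis gives the log2 difference of dosed minus undosed pups and the y axis the -log10 of the unadjusted limma p for each of the 9519 probe sets tested in hippocampus at PND14. The 7 haemoglobin probe sets (red) lie at 0.71 to 1.49 at the upper right, and the 3 with an adjusted p under 0.05 are ringed.

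Haemoglobin consists of alpha and beta chains, each carrying a haem group, and its genes are read almost only in red cell precursors. The members of a pair of chains are nearly alike, so that the array often cannot separate them. The sequences of 250 bases before the start of 5 of these genes are given because they show how close the duplicated genes are and what their upstream regions share. They come from RefSeq (build GRCr8) and are written 5′ to 3′ in the direction of the gene. Capitals mark 3 short motifs on either strand: GATAA, a core bound by the red cell factor GATA1, CACCC, a core bound by KLF1, and CCAAT.
Hba-a1, chr10:15842581-15842830, minus strand: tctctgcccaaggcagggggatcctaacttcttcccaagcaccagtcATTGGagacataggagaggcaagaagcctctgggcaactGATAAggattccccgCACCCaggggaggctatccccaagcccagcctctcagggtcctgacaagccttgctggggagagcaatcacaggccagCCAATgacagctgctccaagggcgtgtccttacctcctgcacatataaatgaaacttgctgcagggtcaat
Hba-a2, chr10:15829139-15829388, minus strand: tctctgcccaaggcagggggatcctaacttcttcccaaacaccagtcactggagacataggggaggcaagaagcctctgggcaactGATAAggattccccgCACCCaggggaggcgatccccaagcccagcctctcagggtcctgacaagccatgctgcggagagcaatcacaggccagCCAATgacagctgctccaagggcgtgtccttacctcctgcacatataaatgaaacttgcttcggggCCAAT
Hbb, chr1:167663722-167663971, minus strand: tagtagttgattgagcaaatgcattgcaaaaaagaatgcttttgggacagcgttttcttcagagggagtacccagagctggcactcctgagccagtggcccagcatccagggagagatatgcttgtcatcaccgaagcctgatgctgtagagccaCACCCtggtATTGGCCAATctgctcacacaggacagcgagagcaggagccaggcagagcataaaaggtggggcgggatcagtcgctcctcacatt
Hbbl1, chr1:167650236-167650485, minus strand: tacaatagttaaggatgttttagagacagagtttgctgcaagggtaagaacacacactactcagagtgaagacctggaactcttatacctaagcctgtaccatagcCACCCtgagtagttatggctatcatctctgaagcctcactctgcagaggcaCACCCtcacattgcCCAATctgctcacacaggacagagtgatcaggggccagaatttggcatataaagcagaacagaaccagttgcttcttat
Hbb-bs, chr1:167631631-167631880, minus strand: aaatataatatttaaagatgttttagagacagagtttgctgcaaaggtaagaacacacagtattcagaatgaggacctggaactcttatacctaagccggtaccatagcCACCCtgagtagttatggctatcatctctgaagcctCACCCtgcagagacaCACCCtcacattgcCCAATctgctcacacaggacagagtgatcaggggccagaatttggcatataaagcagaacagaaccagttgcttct

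The upstream regions of Hba-a1 and Hba-a2 were identical at 241 of 250 aligned positions (96.4%), and those of Hbbl1 and Hbb-bs at 236 of 253 (93.3%), against 61.2% between Hbb and Hbb-bs and 48% between Hba-a1 and Hbb. CCAAT was found in all 5. CACCC was also found in all 5, at 1 to 3 places, and GATAA in Hba-a1 and Hba-a2. The region of Hba-a3, which is not printed, held CCAAT at 2 places but had 0 matches to CACCC and 0 to GATAA. It was 65% identical to that of Hba-a1. Among 33469 RefSeq windows of the same length, 34% hold CCAAT, 49.2% CACCC and 23.5% GATAA. These motifs are therefore common, and a match describes the letters only.

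All 7 tested haemoglobin probe sets were higher in each dosed pup than in any undosed pup (6.61% of all probe sets were), by 0.71 to 1.49. The beta chain gene Hbb has a probe set listed under its symbol alone. Whether that probe set also reads the other beta chains was not tested. It was at 11.91, 12.83 and 11.87 in the dosed pups of dams 12, 15 and 18. In the undosed pups of dams 1, 7 and 13 it was at 11.04, 10.40 and 11.11. Dam 15 gave the highest value and undosed dam 7 the lowest, and the groups did not overlap. The change in Hbb of 1.36 ± 0.24 was not called (2.56-fold, adjusted p = 0.0911), and without the dam 15 array it was 1.04.

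The Hba-a2/Hba-a1 probe set of smallest p lay at 13.21, 13.59 and 13.13 in dosed pups and at 12.41, 11.88 and 12.32 in undosed pups. The Hbbl1/Hbb-bs one that was called lay at 10.35, 11.18 and 10.71 against 9.49, 8.83 and 9.45. The dosed and undosed pups overlapped in neither. Hba-a3, a further alpha gene, lay at 9.64, 10.10 and 9.54 against 9.06, 8.89 and 9.20, a change of 0.71 ± 0.14 (adjusted p = 0.155). The embryonic chains Hbe1, Hbe2 and Hbz lay at 5.08 to 6.15 in all 6 arrays, below the level at which probe sets were tested, and their dosed and undosed means differed by a fold of 1.01 to 1.02.

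Alas2, the haem-making enzyme particular to red cell precursors, had the same highest and lowest pups. It lay at 8.11, 9.34 and 8.18 in dosed pups and at 7.85, 6.93 and 7.58 in undosed pups, a change of 1.09 ± 0.28 that was not called (adjusted p = 0.924). Alox15, a lipoxygenase that reticulocytes use when they remove their mitochondria, lay at 8.78, 10.28 and 9.11 against 8.06, 7.31 and 7.90, the largest difference of any tested probe set at 1.63 ± 0.31 (3.10-fold, adjusted p = 0.120). Without the dosed pup of dam 12 Alox15 was called (adjusted p = 0.0398), and in the other 14 of 15 alternatives it was not (adjusted p up to 0.962). In all 9 of these probe sets, the 7 for haemoglobin with Alas2 and Alox15, the dosed pup of dam 15 was highest and the undosed pup of dam 7 lowest, an order found in 3.52% of all probe sets tested.

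**Figure D2:**
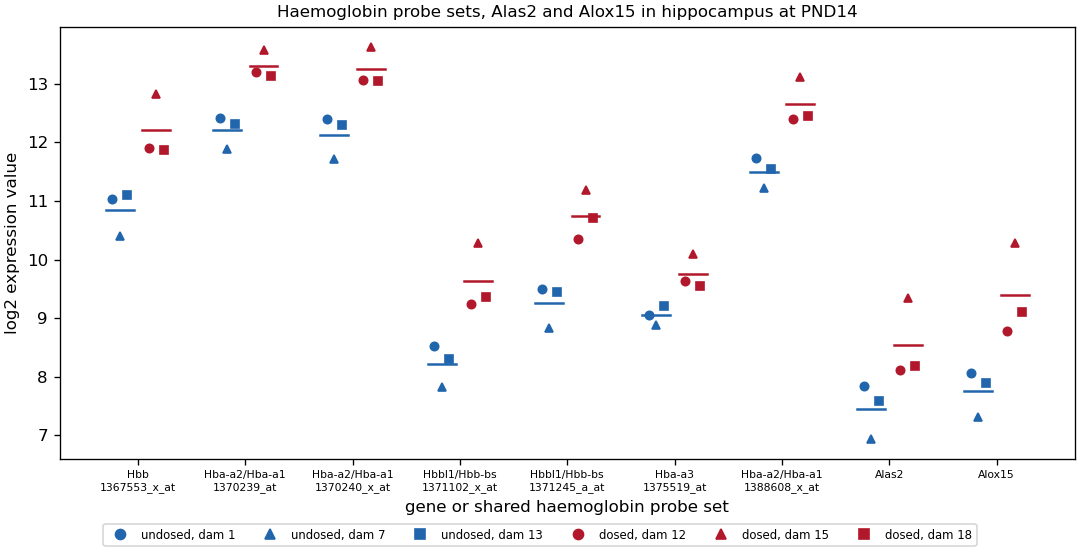
The y axis gives the log2 expression value in each of the 6 hippocampus PND14 arrays for the 7 haemoglobin probe sets, Alas2 and Alox15. Points are pups, with the shape giving the dam, and lines are group means. In each of the 9 the 3 dosed pups (red) lie above the 3 undosed pups (blue).

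Other genes of red cells had nearly equal means in both groups. Slc4a1, the anion exchanger of the red cell membrane, had a mean of 7.34 ± 0.05 (SD, n = 3) in dosed and 7.33 ± 0.20 (SD, n = 3) in undosed pups. Ahsp, which stabilizes free alpha chains, was at 6.69 ± 0.10 and 6.71 ± 0.18, and Rhag at 5.30 ± 0.05 and 5.38 ± 0.11, both below the tested range. Of the 6 red blood cell genes tested with a probe set listed under their symbol alone, 5 were higher, Hbb and Alas2 among them, and 0 called. Their median was 0.09 beside 0.02 for all probe sets. More red cells in a sample and more haemoglobin RNA in each cannot be told apart in whole tissue.

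Haem is made in a chain of enzymes that brain cells also express, and broken down by haem oxygenase. Of 7 tested genes of haem synthesis and breakdown, 5 were higher in dosed pups and 0 called, with a median change of 0.12. Urod, which acts midway in the chain, lay at 8.58, 8.56 and 8.48 against 8.13, 8.28 and 8.33, without overlap (0.29 ± 0.09, adjusted p = 0.946). Fech, which inserts the iron, differed by 0.12 with overlap. Hmox1, the inducible haem oxygenase, was at 8.57 in the dam 15 pup and at 7.24 to 7.41 in the other 5. Its difference of 0.50 was 0.11 without that array.

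The dosing difference in haemoglobin was not the same at both ages. For the difference of the dosing effects, PND14 minus PND7, 8 of 9519 probe sets were called (0.0840%), all of them higher, and 6 were for haemoglobin. Hbb differed by 2.04 ± 0.35 (adjusted p = 0.0357), the 3 Hba-a2/Hba-a1 probe sets by 1.64 ± 0.23, 1.68 ± 0.27 and 1.75 ± 0.26 (adjusted p = 0.0138, 0.0314 and 0.0183), and both Hbbl1/Hbb-bs probe sets by 2.42 (adjusted p = 0.0138 for each). Both comparisons share the 6 PND14 arrays, so this is no separate evidence for the rise at PND14. At PND7 all 7 haemoglobin probe sets were lower in dosed pups, by 0.34 to 1.00 in size, and none was called (adjusted p from 0.105 to 0.250).

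The levels show how the groups crossed. In undosed pups Hbb went from 12.19 ± 0.23 (SD, n = 3) at PND7 to 10.85 ± 0.39 (SD, n = 3) at PND14. In dosed pups it went from 11.51 ± 0.34 (SD, n = 3) to 12.20 ± 0.54 (SD, n = 3). The undosed litters had the higher Hbb at PND7 and the lower at PND14. Alas2 followed the same course, from 8.15 ± 0.27 to 7.45 ± 0.47 in undosed and from 7.77 ± 0.26 to 8.54 ± 0.69 in dosed pups (SD, n = 3 each), as did Alox15, from 8.25 ± 0.31 to 7.76 ± 0.39 and from 7.67 ± 0.36 to 9.39 ± 0.79 (SD, n = 3 each). The count of 8 was 0 without the arrays of high Xist (undosed dam 1 at PND14 and undosed dam 13 at PND7), 0 after quantile normalization, 0 without the PND7 pup of dosed dam 12 or dam 18, and 14 without the PND14 pup of dam 15. It was 3 without undosed dam 13 at PND14, 5 without undosed dam 1 at PND14, and 4 or 5 without undosed dam 1 or 7 or dosed dam 15 at PND7.

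The other probe sets called for age were 2, both of genes that were lower in dosed pups at PND7 and higher at PND14. Ppp1r1b encodes DARPP-32, an inhibitor of protein phosphatase 1 in neurons that receive dopamine. At PND14 it lay at 7.86, 7.97 and 7.92 in dosed pups and at 7.43, 7.69 and 7.57 in undosed pups, and at PND7 at 7.20 ± 0.12 (SD, n = 3) against 7.77 ± 0.23 (SD, n = 3), giving a difference of effects of 0.92 ± 0.16 (adjusted p = 0.0357). With the dam as a fixed block, which uses the shared litters, that call was lost (adjusted p = 0.0543). Slc25a27, a mitochondrial carrier also called UCP4 and chosen after its values were seen, differed by 0.88 ± 0.14 (adjusted p = 0.0314, and 0.0423 with the block) in 1 of its probe sets. In it the PND14 values were 7.34, 7.45 and 7.54 in dosed and 7.19, 7.32 and 6.99 in undosed pups, with means at PND7 of 7.47 ± 0.09 and 8.07 ± 0.13 (SD, n = 3 each). At PND14 taken alone neither change was called (adjusted p = 0.946 for each).

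In cerebellum of the same litters at PND14 the haemoglobin probe sets were also higher in dosed pups, by 0.57 to 1.23 in all 7. With 1 pup per litter and age, these are taken to be the same pups and not a second set of animals. The dosed pups lay above both undosed pups in 6 of 7 probe sets. How often that held over all probe sets in cerebellum was not counted. None of the 7 was called (adjusted p = 0.963). Hbb was at 12.34, 13.63 and 12.31 in dosed pups of dams 12, 15 and 18 and at 11.58 and 11.93 in undosed pups of dams 1 and 7, with that of dam 13 not used. The pup of dam 1 had Xist at 10.76 there too, against 4.07 to 4.21 in the other 4. Alox15 was at 8.99, 11.77 and 9.18 against 8.13 and 8.27, and Alas2 at 8.31, 10.97 and 8.33 against 7.80 and 7.85. The pup of dam 15 was again highest in each. The test of the difference between the tissues called 0 of 9519 probe sets. These were filtered on the mean over both tissues, so some genes tested in hippocampus, such as Ahr, were not among them. Before adjustment 221 had a p under 0.05, and no adjusted p was below 0.998. At PND7 in cerebellum, dosed and undosed pups overlapped in all 7.

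**Figure D3:**
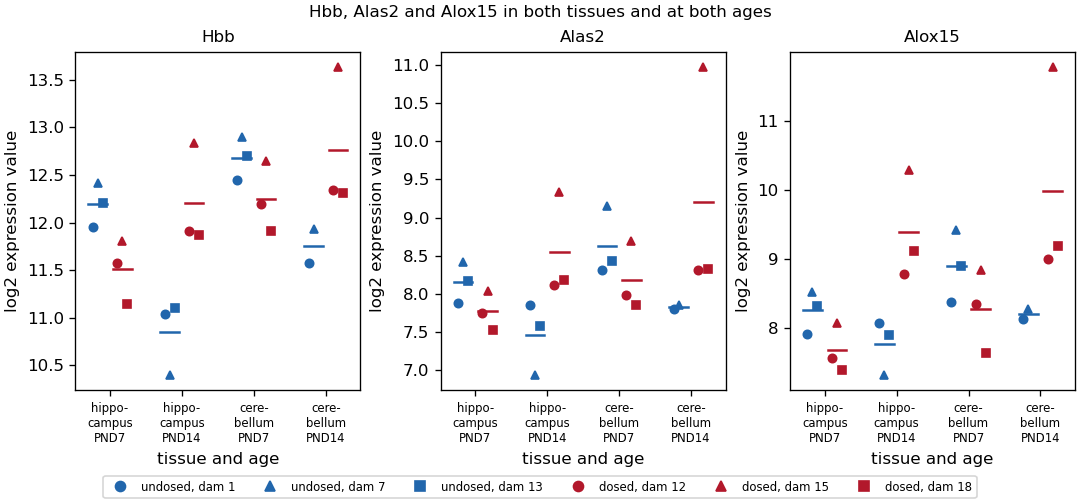
The y axes give log2 expression values of Hbb, Alas2 and Alox15 by tissue and age, each point an array and each line a group mean. The tissues of an age are taken to come from the same pups. Dosed pups (red) lie below or among undosed pups (blue) at PND7 and above them at PND14, and in cerebellum at PND14 only 2 undosed arrays were used.

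No detoxifying or antioxidant gene was called. Of 20 antioxidant genes tested, 16 were higher, with a median of 0.09 (0.07 without dam 15), beside 5586 of 9519 for all probe sets with a median of 0.02. Gpx1, which reduces peroxides with glutathione, lay at 9.06, 9.46 and 9.16 against 8.61, 8.85 and 8.75, without overlap (0.49 ± 0.11, 1.40-fold, adjusted p = 0.462). It was 0.38 without the dam 15 array. Gstp1, a glutathione transferase, was at 10.11 in the dam 15 pup and at 9.43 to 9.60 in the other 5.

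Of 10 tested genes known as targets or partners of the aryl hydrocarbon receptor, CAR and PXR, 7 were higher and 0 called, with a median of 0.14 that was 0.05 without the dam 15 array. Cyp1a1, the classical target of dioxin-like PCBs, was below the tested range, with values of 6.28, 6.36 and 6.26 in dosed and 6.35, 6.39 and 6.26 in undosed pups, and the groups overlapped. Cyp1b1 differed by 0.17 with overlap, and Cyp1a2 was lower in dosed pups without overlap (7.10, 7.08 and 7.13 against 7.40, 7.18 and 7.46). Ahr, the receptor itself, differed by -0.03, and by 0.07 without the undosed pup of dam 1. Gsta1, a glutathione transferase, lay at 7.95, 8.77 and 7.65 against 6.65, 7.71 and 6.87, with overlap (1.04 ± 0.26, adjusted p = 0.759). Its value in undosed dam 7 was above that of dosed dam 18. With the dam 15 array alone left out, Gsta1 was below the tested range. Nqo1, a quinone reductase, differed by 0.31, and by 0.14 without the dam 15 array.

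Genes that respond to glucocorticoids were higher in 15 of 16 tested, with a median of 0.19 and 0 called. Sgk1, a kinase induced by corticosteroids, lay at 8.92, 9.33 and 8.98 against 8.62, 8.79 and 8.59 without overlap (0.41 ± 0.12, adjusted p = 0.946). Angptl4, which inhibits lipoprotein lipase, was at 8.81 in the dam 15 pup and at 6.97 to 7.33 in the other 5. Without the dam 15 array 11 of 16 were higher, the median was 0.07 and Fkbp5, a chaperone of the glucocorticoid receptor, went from 0.22 to 0.04. Most of this list's shift therefore sat in 1 pup. The circadian list, which shares Per1 with it, had 9 of 12 higher with a median of 0.11 (0.10 without dam 15), and Per2, a clock repressor, lay at 8.33, 8.60 and 8.36 against 8.31, 8.33 and 8.05.

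Other genes with non-overlapping higher values in dosed pups had various roles. Tspan18, a tetraspanin of endothelium, lay at 7.79, 7.99 and 7.702 against 7.58, 7.25 and 7.32 (0.44 ± 0.10, adjusted p = 0.390). Slc2a1, the glucose transporter of the blood-brain barrier, lay at 9.23, 10.03 and 9.31 against 8.93, 9.15 and 8.95 (0.51 ± 0.16, 0.26 without the dam 15 array). Htra1, a secreted protease, lay at 9.45, 10.34 and 9.57 against 9.03, 9.33 and 9.34. Rbm3, an RNA-binding protein induced by cold, lay at 9.58, 10.24 and 9.65 against 9.57, 9.46 and 9.03, with the closest pups nearly equal. Ttr, the thyroid hormone carrier made by choroid plexus, was higher by 1.32 ± 1.04 without overlap. It lay at 8.37, 8.45 and 8.93 against 7.66, 7.45 and 6.70. This SE includes the spread of the PND7 pups, with an SD of 2.67 in dosed and 2.10 in undosed pups. At PND14 the SD was 0.30 in dosed and 0.50 in undosed pups. In the limma fit of the 6 arrays alone Ttr was not called either (adjusted p = 0.275). The other 6 choroid plexus markers differed by -0.07 to 0.12. Over all 7 markers 4 were higher, and their mean level lay at 7.28 to 7.53 in dosed and 7.17 to 7.34 in undosed pups. Kl and Kcne2 among them were below the tested range. Over the longer choroid plexus list 3 of 7 tested were higher and 4 lower, 0 called, with a median of -0.04. The part of choroid plexus content in the Ttr difference was not tested.

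Lower values in dosed pups without overlap were fewer, and the smallest adjusted p was 0.744. Some of them are genes of the vessel wall. Myh11, the myosin heavy chain of smooth muscle, lay at 7.27, 7.24 and 7.30 against 7.72, 7.87 and 7.73 (-0.50 ± 0.13, adjusted p = 0.924), and Eln, elastin, at 8.25, 8.19 and 8.17 against 8.64, 8.66 and 8.69 (-0.46 ± 0.13, adjusted p = 0.946). In both genes the 3 pups of each group lay close together, dam 15 included. Acta2, smooth muscle actin, overlapped, at 8.10, 8.67 and 7.79 against 8.63, 8.51 and 8.74. All 7 vessel wall markers on the array were lower in dosed pups, 3 of them without overlap (2.68% over all probe sets tested). Only 4 of the 7 were in the tested range. Tagln, 1 of the 3 without overlap, was below it, as were Cnn1 and Pdgfrb, which differed by -0.04 and -0.02. Without the dam 15 array 6 of 7 were lower. The mean level of all 7 markers lay at 6.85 to 6.91 in dosed and 7.15 to 7.25 in undosed pups. Over the longer list of vessel wall and pericyte genes 9 of 12 tested were lower, 0 called, with a median of -0.08.

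Endothelial markers were higher in 6 of 6, with a mean level of 8.40 in the dosed pup of dam 15, 7.79 in both other dosed pups and 7.73 to 7.83 in undosed pups. Without the dam 15 array 2 of 6 were higher. Over the longer endothelial list 7 of 13 were higher, 0 called, with a median of 0.01. Meningeal and fibroblast genes were lower in 13 of 20 tested (median -0.03, and -0.12 in 16 of 20 lower without dam 15), with 0 called. Col1a1, the main collagen of fibroblasts, overlapped, at 8.35, 7.79 and 7.80 against 8.58, 8.15 and 8.54. The part of vessel and meningeal content of each dissection in these values was not tested.

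The other lower genes have no common role. Hyou1, a chaperone of the endoplasmic reticulum, lay at 7.53, 7.61 and 7.80 against 8.29, 9.13 and 8.64, with a difference of -1.04 ± 0.30 (adjusted p = 0.946). No tested probe set had a larger negative difference. Its other probe set, below the tested range, differed by -0.46. Of 26 chaperone and unfolded-protein genes 17 were lower, with a median of -0.08 that was 0.00 without the dam 15 array. Kif5a, a kinesin of axonal transport, lay at 10.07, 9.51 and 9.79 against 10.47, 10.35 and 10.89 (-0.78 ± 0.23), while its second probe set differed by -0.04. Mmgt2, a small membrane protein, was the lower gene of smallest p (-0.39 ± 0.10, adjusted p = 0.744), and Kifc1, a mitotic kinesin, lay at 6.61, 6.58 and 6.57 against 6.99, 6.86 and 6.92.

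**Figure D4:**
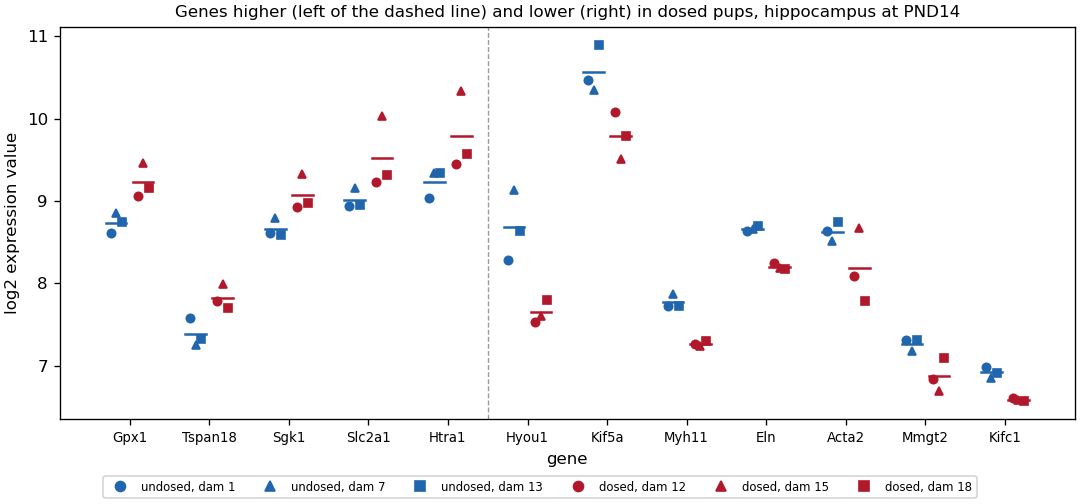
The y axis gives the log2 expression value of 12 genes in the 6 hippocampus PND14 arrays, with points for pups and lines for group means. Right of the dashed line, Myh11 and Eln separate the dosed (red) and undosed (blue) pups with little spread within a group, while left of it the dam 15 pup is highest in each of the 5 genes; none of the 12 was called.

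Neuronal genes differed little. Of 20 genes of hippocampal principal neurons 12 were higher, 0 called, with a median of 0.02. Calb1, a calcium buffer of granule and CA1 cells, lay at 9.33, 9.34 and 9.56 against 9.23, 9.18 and 9.08 (0.25 ± 0.09), and Neurod1, a factor of young granule cells, at 9.93, 10.12 and 9.82 against 9.79, 9.55 and 9.59 (0.31 ± 0.13). Both were without overlap, and both had an adjusted p of 0.946. Camk2a, the kinase of excitatory synapses, overlapped and its probe sets disagreed, from -0.28 to 0.32. Of 36 glutamate receptor and postsynaptic genes, 18 were higher and 18 lower with a median of 0.00, and 5 of them were lower without overlap (2.68% over all probe sets), Grin2a among them (7.27, 7.33 and 7.29 against 7.67, 7.51 and 7.35). Dusp6, a phosphatase that follows ERK signalling, was higher without overlap, at 9.48, 9.26 and 9.39 against 9.002, 9.18 and 9.03, although its probe sets ranged from -0.28 to 0.40.

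Calcium genes included the ryanodine receptors. Ryr2 differed by -0.04 ± 0.09, and Ryr1 was below the tested range, at 6.37, 6.21 and 6.19 against 6.502, 6.15 and 6.32. Over 43 tested genes of calcium channels, stores and sensors 25 were higher, 0 called, with a median of 0.02, the same as over all probe sets. Protein kinase C genes and partners had 9 of 18 higher with a median of 0.00.

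Of 23 tested genes of thyroid hormone handling and response, 14 were lower and 0 called, with a median of -0.07 that was 0.00 without the dam 15 array. Hr, a corepressor induced by thyroid hormone, was at 7.36 in the dam 15 pup and at 7.85 to 7.95 in the other 5. Klf9, another induced gene, differed by 0.12 ± 0.12 and Nrgn by -0.02 ± 0.09. Thra, the main brain receptor, differed by 0.10 and its second probe set by -0.02. Thrb, Dio2 and Dio3 lay below the tested range, with Thrb at 5.65, 5.57 and 5.70 against 5.81, 5.75 and 6.06.

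Myelin genes were split among the dosed pups. Mbp, the main protein of compact myelin, lay at 12.64, 11.42 and 12.88 in dosed pups and at 12.35, 12.45 and 12.50 in undosed pups, and Cnp at 11.26, 9.93 and 11.32 against 10.82, 11.01 and 11.10. In both genes the dosed pups of dams 12 and 18 were above, and that of dam 15 below, every undosed pup. With all arrays 9 of 13 myelin genes were lower (median -0.11), and without dam 15 all 13 were higher (median 0.31), with 0 called in either case. The mean level of the 13 was 9.77 and 9.98 in dosed dams 12 and 18, 8.72 in dosed dam 15, and 9.40 to 9.63 in undosed pups. Cholesterol synthesis, which supplies myelin, was low in the same pup: 20 of 25 genes were lower (median -0.06), and 18 of 25 higher without dam 15 (median 0.05). Cyp51 was at 8.98 in the dam 15 pup and at 9.65 to 9.84 in the other 5.

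**Figure D5:**
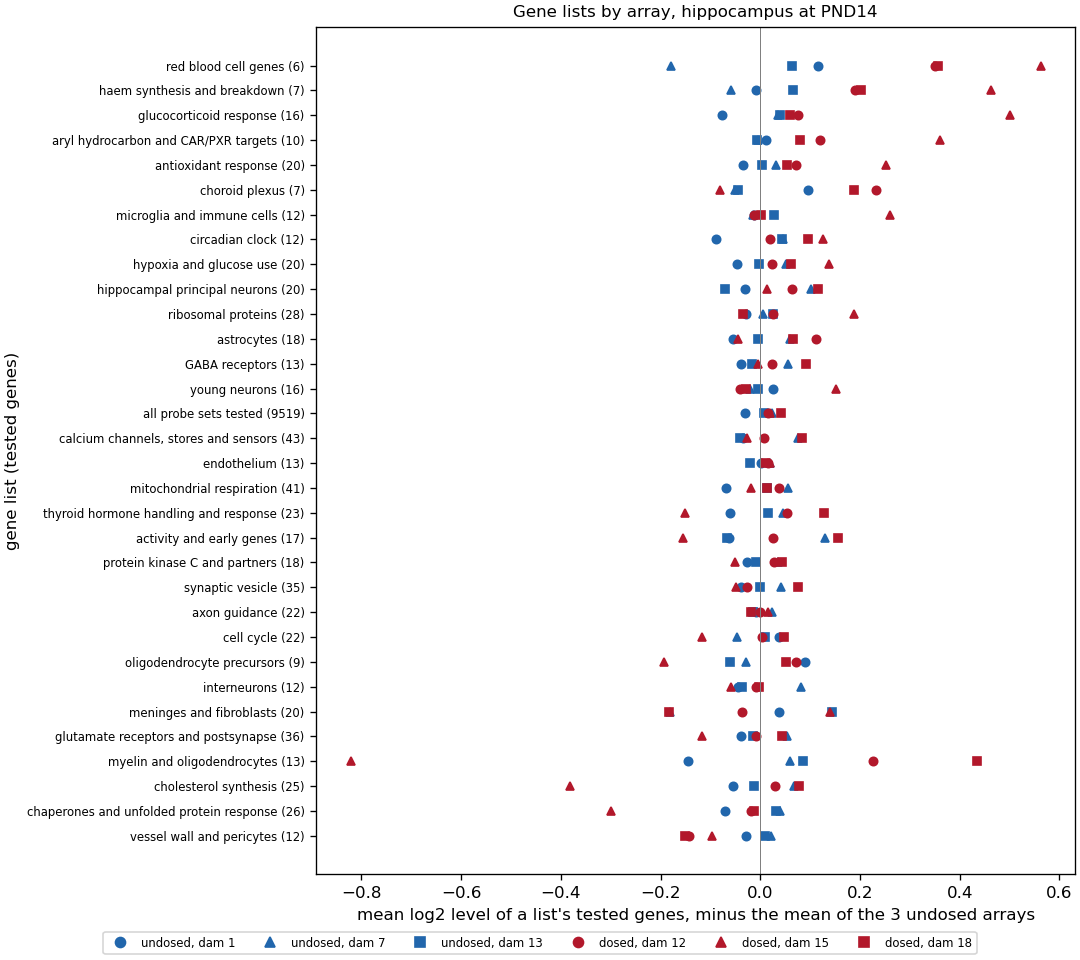
The x axis gives the mean log2 level of the tested genes of each list in each of the 6 arrays, minus the mean of the 3 undosed arrays, and the y axis the lists with their number of tested genes. In some lists the dosed pup of dam 15 (red triangle) lies farther from 0 than any other pup. Among these are myelin, red blood cell genes, glucocorticoid response, haem synthesis and cholesterol synthesis. The 3 dosed pups lie on the same side of every undosed pup in red blood cell genes, haem synthesis and vessel wall genes, among others. The red blood cell list includes Hbb and Alas2 and the haem list Alas2, so these lists are not separate from those genes.

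The array of dam 15 was described further because it touches most results. Of the 63 probe sets over 1 log2 unit from the mean of the other 5 hippocampus arrays, 36 were higher and 27 lower. Genes named here were chosen after their values were seen. Txnip, a brake on thioredoxin that follows glucose, was at 10.48 against 8.46 to 8.72, Mt2A, a metallothionein, at 11.41 against 9.72 to 9.99, and Vwf, an endothelial clotting factor, at 9.35 against 7.81 to 7.95. In the cerebellum array of the same litter and age, taken to be the same pup, 35 of the 36 higher probe sets were above all 4 other PND14 cerebellum arrays. Of the 27 lower ones 20 were below all 4. How often that array was highest or lowest over all probe sets was not counted. The cerebellum counts therefore have no share to be set against. In hippocampus, another tissue, the dam 15 pup was highest in 2868 of 9519 probe sets tested. In cerebellum Txnip was at 11.71 against 9.34 to 9.91 and Mt2A at 11.97 against 9.12 to 9.29. The myelin genes differed between the tissues. The Mbp probe set with the largest deviation differed from the mean of the other 5 by -1.83 in hippocampus, at 9.15 against 10.81 to 11.41, and from the mean of the other 4 by 0.04 in cerebellum. Without this pup the fitted difference was 1.04 for Hbb, 0.70 for Alas2 and 1.19 for Alox15.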

How the data were processed

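RNA from hippocampus and cerebellum was measured on Affymetrix rat arrays (control probe sets named AFFX). The log2 values per probe set were used as deposited by the authors; the summary and normalization software is not given in the sources used here, and log2 is read from their range. Array medians were 7.420 to 7.483 over 23 arrays. The cerebellum PND14 array of undosed dam 13 (median 7.908) was left out. Of 15866 probe sets without controls, 12783 carry 1 symbol, 312 several and 2771 none, of which 12748 matched RefSeq. Probe sets above the 40th percentile of the mean over the 12 hippocampus arrays were tested (9519, covering 6958 genes), and a gene is represented by its brightest probe set.

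The fit was limma 3.58.1 in R 4.3.3 with 4 group means over those 12 arrays, empirical Bayes moderation, 2-sided p and Benjamini-Hochberg adjustment over all 9519. The tissue comparison used 23 arrays and the same percentile of the mean over them, which gave another set of 9519 probe sets. Errors of a difference are limma standard errors (SE) and of a group standard deviations (SD). Depth has no counterpart on arrays, and 3 pups a group limit the precision. The code was tested on simulated data. Genes are named by a rule: the 12 largest non-overlapping differences each way, the smallest p, 30 chosen genes, up to 4 members per list and the 5 smallest p of each difference of effects. The members and lists were chosen with earlier results of these data known. Per the labels a number marks a litter; deviations of the same litter at PND7 and PND14 correlated at -0.10 to 0.20 (median -0.02, 6 dams), and dosed and undosed pups share no litter. The alternatives were normalization, filter, variance prior, arrays fitted, dam as a block, the mean over a gene's probe sets and single arrays left out.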

Additional observations from a re-analysis of the deposited data

Results flagged for a closer look

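For 8 probe sets the dosing effect in hippocampus differed between PND14 and PND7 by the test of that difference (limma, adjusted p under 0.05). The differences, PND14 minus PND7, were 2.04 for Hbb, 1.64, 1.68 and 1.75 for the 3 probe sets of Hba-a2/Hba-a1, 2.42 for each of the 2 of Hbbl1/Hbb-bs (2.417 and 2.425), 0.92 for Ppp1r1b and 0.88 for Slc25a27. The groups hold 3 arrays each, too few for a test of outlying arrays within a group. The difference for Slc25a27 rests on 1 of its probe sets.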

How the results depend on the processing

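The 3 probe sets called for dosing became 0 after quantile normalization, with no filter, without the arrays of high Xist, with 23 arrays, with the 6 arrays alone, and without the dam 15 array and the arrays of high Xist together. They became 5 with a filter at the 60th percentile and with an intensity trend in the prior, 0 to 5 when 1 PND14 array was left out, and 0 to 3 when 1 PND7 array was. After quantile normalization 4570 of 9519 probe sets were higher, against 5586 with the values as deposited, and the median of all moved from 0.02 to -0.01. The 8 called for age became 0 after quantile normalization and without the arrays of high Xist, 3 with 23 arrays, and 0 to 14 when 1 array was left out. With the dam as a random replicate block 2 and 6 were called, and with the dam as a fixed replicate block, possible only for age, 10, without Ppp1r1b (adjusted p = 0.0543). The count for tissue was 0 in every alternative run. Over named genes 988 of 1049 alternatives kept direction and side of the threshold, and 21 turned the sign, all of a change that was not called. Most of these genes were far from a call, so that count says little about the calls. The 34 alternatives that lost a call were all of the 3 called probe sets, in 11, 12 and 11 of 15 alternatives each. Ahr was 0.068 without the arrays of high Xist. Without those and dam 15, Ahr was 0.053, Fkbp5 -0.0049, Vwf -0.034, Vegfa -0.0042, Fn1 -0.059, Mbp 0.29, Cnp 0.23 and Gfap 0.24. Camk2a was 0.14 as the mean over its probe sets. With 1 array left out in turn, changes ranged from -0.16 to 0.068 for Ahr, -0.028 to 0.74 for Vwf, -0.043 to 0.76 for Fn1, -0.40 to 0.33 for Mbp, -0.38 to 0.31 for Cnp, -0.46 to 0.16 for Gfap, -0.40 to 0.030 for Cyp51, -0.18 to 0.55 for Mal, -0.049 to 0.033 for Nrgn, -0.33 to 0.24 for Camk2a and -0.094 to 0.0048 for Ryr2. Of 310 list medians 22 moved by more than the spread between arrays. The causes were not tested. Fits that leave out the dam 15 array together with others, or a PND7 array, were chosen after seeing the data.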
